A study of Macaca mulatta with 24 samples.

Results

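The genes described here are 10 immediate early genes, FOS, FOSB, FOSL1, JUN, JUNB, EGR1, ATF3, IER2, KLF6 and RHOB, listed by gene symbol with earlier results of these data known. Of the 10, 9 had a row among the 35432 genes of the deposited table, and all 9 were among the 14062 genes tested, those that reached 10 normalized counts in 4 or more of the libraries. IER2 was matched to no row by its symbol and was not analysed here.

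Immediate early genes are transcribed within minutes of a stimulus from factors already present in the cell, without new protein synthesis, and their mRNAs are usually short-lived. FOS, FOSB and FOSL1 pair with JUN or JUNB to form the AP-1 transcription factor, EGR1 is a zinc finger factor, ATF3 is a stress-induced partner of the same leucine zipper class, and KLF6 is a Krüppel-like zinc finger factor. RHOB is a membrane-bound small GTPase and no transcription factor, but it is induced with the same kinetics by growth factors and DNA damage. In airway epithelium these genes are known to respond to smoke, oxidants, wounding and fresh medium, and AP-1 and KLF6 take part in the response to injury.

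RNA was sequenced from epithelial cells of the trachea and bronchi of 4 rhesus macaques, labelled as adult females, grown on porous inserts and differentiated with an air interface above them in a 1:1 mix of BEGM and DMEM with retinoic acid. All cultures shared this medium, which was changed every 2 to 3 days. Groups were exposed to filtered air or to diluted whole wood smoke for 6 h a day, on 1 day, on 5 days in a row, or on 5 days followed by a recovery of 7 days, so that there were 6 groups of 4 libraries, 1 from each animal. The animals are S1 (5463 days old, 5.59 kg), S2 (2930 days, 7.17 kg), S3 (2238 days, 4.56 kg) and S4 (1128 days, 3.18 kg), so effects of age cannot be told apart from those of the single animal. The time between the end of a session, or the last medium change, and lysis is not given in the sources used here.

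The values were normalized counts on a linear scale, with library totals of 11.8 to 15.2 M and approximate depths of 9.48 to 17.4 M reads. Group means were fitted with limma to log2(value + 1) of all 24 libraries, and genes with an adjusted p under 0.05 were called. Each comparison was fitted without a term for the animal (the unblocked fit) and with animal as an additive term (the blocked fit), and libraries of the same animal did deviate together. The unblocked fit is the main design. Calls of either fit are given as rises or falls, most of them made only with the block, and SEs are those of the blocked fit unless another is named. One library, S1 in air at 5 days, was unlike the rest (median r of 0.86 with them, where the other 23 had 0.931 to 0.956), so the blocked fit was repeated without it (the 23-library blocked fit) and on the libraries of each smoke comparison alone. Epithelial markers were present: none of the 10 basal, 9 ciliated and 9 secretory markers with a row was at 0 in all libraries. Of the 7 fibroblast markers only LUM was at 0 in all 24, and of the 8 leukocyte and endothelial markers only CDH5. COL1A1, COL1A2, COL3A1 and PDGFRA of the former, and CD68, CD14, PECAM1 and VWF of the latter, were among the genes tested.

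In the unblocked fit none of the 9 genes was called in a smoke comparison, although 4 at 1 day, 2 at 5 days and 5 at recovery had an unadjusted p under 0.05. Of all 14062 genes tested, 265, 1306 and 1197 had an unadjusted p under 0.05 at these times. Few genes of any kind were called there: 0.0284% of those tested at 1 day, 0.0711% at 5 days and 0.242% at recovery. In the blocked fit KLF6 and RHOB rose at 1 day, FOS and JUNB fell at 5 days, and FOS, FOSL1, EGR1 and JUN fell at recovery. These were 2, 2 and 4 of the 9 genes, against 0.0782%, 1.69% and 3.41% of all genes tested. Over the 9 genes the median log2 fold change of smoke against air was 0.57 at 1 day, with 7 genes above 0. It was −0.11 at 5 days, with 6 below 0, and −0.67 at recovery, with 8 below 0. The medians over all genes tested were 0.0037, 0.013 and 0.0083. The 23-library blocked fit called 4 of the 9 genes at 1 day, 2 at 5 days and 5 at recovery, against 0.96%, 6.26% and 18.8% of all genes. Fitted on the 8 libraries of each comparison alone, with the block, 5, 0 and 5 of the 9 were called, against 9.11%, 0% and 18.8%. At 5 days 2 of the 9 genes and 822 genes in all had an unadjusted p under 0.05 in that last fit.

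**Figure D1:**
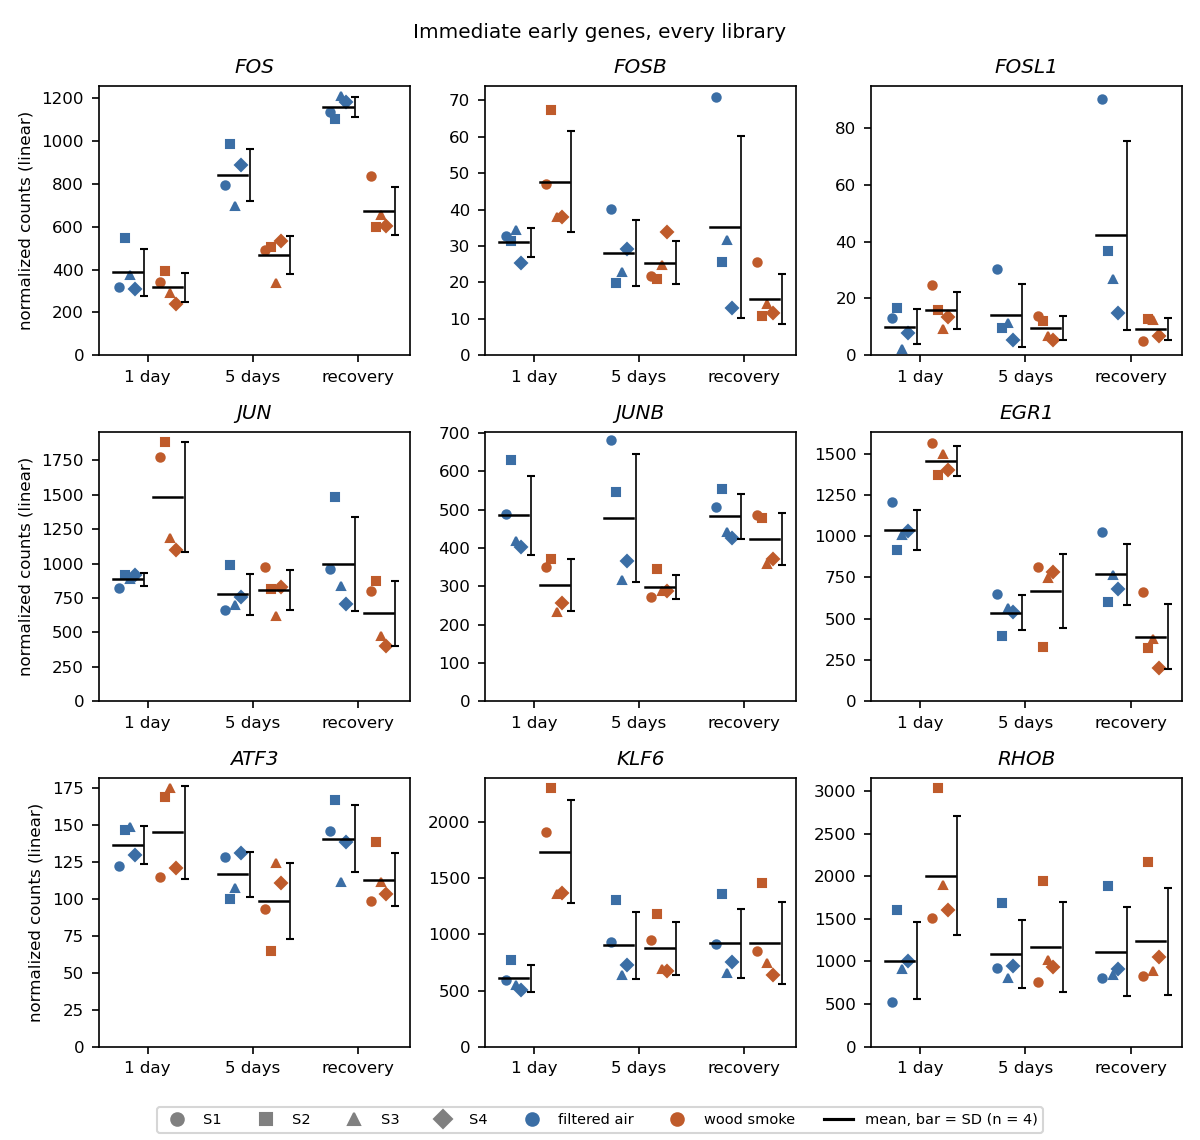
Normalized counts (linear axis from 0) of the 9 genes in all 24 libraries, by time and exposure; each symbol is an animal, and the horizontal line and bar are the mean and SD of 4 libraries. KLF6 stands at 1358 to 2306 in the 4 smoke libraries at 1 day and at 509.6 to 776 in the matching air libraries, while FOS is higher in every air library than in any smoke library at 5 days and at recovery.

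KLF6 had the largest change at 1 day among these genes. In air it was at 594, 776, 555 and 509.6 normalized counts in S1 to S4 (609 ± 117, SD, n = 4). In smoke it was at 1909.6, 2306, 1358 and 1372 (1736 ± 458). The groups did not overlap, and the lowest smoke library was well above the highest air library. The fitted difference was 1.49 ± 0.10 (SE) on the log2 scale, a 2.81-fold rise, with a log2 difference of 1.29 to 1.68 within single animals. It was called in the blocked fit (adjusted p = 4e-08) and after leaving out any 1 animal, but not in the unblocked fit (adjusted p = 0.068), which called it without S1 of air at 5 days (adjusted p = 0.037) or without S2 (adjusted p = 0.011). At 5 days KLF6 averaged 903 ± 297 in air and 877 ± 238 in smoke, and at recovery 920.0 ± 311 and 923 ± 366. The log2 differences of −0.03 ± 0.10 and −0.01 ± 0.10 did not pass the test, and the animals split 2 to 2 in direction at both times.

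RHOB, the small GTPase, moved with KLF6 at 1 day. In air its values were 519.8, 1607, 909 and 1003 in S1 to S4 (1009 ± 449.6), and in smoke 1507, 3029.8, 1891 and 1601 (2007 ± 701). Every animal was higher in smoke, by 0.67 to 1.53 on the log2 scale, but the groups overlapped because S2 was high in both. The rise of 1.04 ± 0.13 (SE, log2), or 2.06-fold, was called in the blocked fit (adjusted p = 4e-04) and after leaving out any 1 animal (adjusted p up to 0.047). In the unblocked fit the adjusted p was 1. At 5 days the log2 difference was 0.07 ± 0.13, and at recovery it was 0.13 ± 0.13 with all 4 animals higher in smoke, neither past the test.

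JUN and JUNB, both partners of the FOS proteins in AP-1, lay on opposite sides of air at 1 day, JUN above it and JUNB below it in all 4 animals. JUN was at 820.3, 914, 891 and 914 in air, a spread of 885 ± 44.4, and at 1772, 1883, 1187 and 1098 in smoke (1485 ± 399.5). The smoke libraries of S1 and S2 were the high ones, and all 4 lay above all 4 air libraries. The log2 difference was 0.71 ± 0.18 and did not pass in the blocked fit (adjusted p = 0.3). It passed in the 23-library blocked fit (0.71 ± 0.16, adjusted p = 0.031) and on the 8 libraries alone (adjusted p = 0.0028). JUNB, which is known to temper JUN activity, was at 489, 631, 418 and 402 in air and at 351, 371, 233 and 256 in smoke. No smoke library reached the lowest air library. Its log2 difference of −0.68 ± 0.13 missed the threshold in the blocked fit (adjusted p = 0.052) and passed in the 23-library blocked fit (−0.68 ± 0.09, adjusted p = 0.00036) and on the 8 libraries alone (adjusted p = 0.00013).

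After 5 days JUNB fell in the blocked fit and the JUN difference did not pass. JUNB was at 681, 547, 318 and 367 in air and at 272, 345, 288 and 287 in smoke. It was lower in smoke in every animal, by 0.14 (S3) to 1.32 (S1) on the log2 scale, but the groups overlapped and S1 in air was the highest value. The blocked difference was −0.62 ± 0.13 (adjusted p = 0.023), against an adjusted p of 0.35 unblocked. In the 23-library blocked fit it was −0.46 ± 0.10 (adjusted p = 0.010), and without all libraries of S1 −0.39 (adjusted p = 0.025). Leaving out S2, S3 or S4 ended the call, as did fitting the 8 libraries of that time alone (adjusted p = 0.8). JUN averaged 777 ± 148 in air and 809 ± 146 in smoke, a log2 difference of 0.06 ± 0.18. At recovery JUN fell: it was at 964, 1483, 836 and 706 in air and at 802, 871, 470.3 and 403 in smoke. Each animal was lower in smoke although the ranges overlapped. The blocked difference was −0.67 ± 0.18 (adjusted p = 0.046), against an adjusted p of 0.37 without the block, and leaving out S2, S3 or S4 ended the call. With animal as a random effect JUN was not called (adjusted p = 0.062), the only one of the 4 recovery calls lost there. JUNB at recovery, 482 ± 59.2 in air and 424 ± 68.0 in smoke, did not pass (−0.19 ± 0.13, adjusted p = 0.49 with the block).

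FOS, the founding member of its family, was higher in air at each later time, and smoke cultures lay below air from 5 days on. At 1 day it was at 320.3, 545, 373 and 309 in air and at 343, 394, 291 and 238 in smoke, overlapping ranges with a log2 difference of −0.27 ± 0.17 (adjusted p = 1). At 5 days it was at 797, 986, 697 and 886 in air and at 490.1, 506, 337 and 534 in smoke. Every smoke library lay below every air library. The fall was 0.86 ± 0.17 (SE) on the log2 scale, or 1.81-fold, called in the blocked fit (adjusted p = 0.016) and neither in the unblocked fit (adjusted p = 0.089) nor on the 8 libraries of that time alone (adjusted p = 0.8), where no gene was called. At recovery FOS was at 1136, 1104, 1208 and 1179.6 in air and at 837, 598, 655 and 601 in smoke. The groups were again apart, and the 4 air libraries were close together. The difference was −0.79 ± 0.17 (adjusted p = 0.012 blocked, 0.092 unblocked), or 1.73-fold lower. The unblocked fit called it without S1 of air at 5 days (adjusted p = 0.029), without the smoke recovery library of S1 (adjusted p = 0.033) and without all libraries of S1 (adjusted p = 0.038). At both times the blocked call was kept without S1 and lost on leaving out S2, S3 or S4, while the 23-library blocked fit gave −0.90 ± 0.17 (adjusted p = 0.0046) at 5 days.

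FOSL1 and FOSB were low, and their values rest on few reads: about 2.99 to 82.9 reads per library for FOSL1 and 10.1 to 65 for FOSB. On the log2(value + 1) scale the change of such low genes is understated. FOSL1, which encodes FRA-1 and is known from wound edges and squamous cells, was at 90.3, 36.8, 26.9 and 14.9 in air at recovery and at 5.11, 12.8, 12.2 and 6.89 in smoke. The groups did not overlap, but S1 alone fell by 3.90 on the log2 scale where the other animals differed by −1.46 to −1.01. The blocked difference was −1.86 ± 0.45, or 3.63-fold lower (adjusted p = 0.027, against 0.24 without the block). Leaving out any 1 animal ended the call, and without S1 the difference was −1.18 (adjusted p = 0.069). At 1 day and 5 days the FOSL1 differences were 0.78 ± 0.45 and −0.34 ± 0.45, neither past the test.

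FOSB, a longer-lived FOS paralog in its truncated form, was at 32.7, 31.5, 34.4 and 25.4 in air and at 47.0, 67.4, 38.1 and 38.0 in smoke at 1 day. The groups did not overlap, but the log2 difference of 0.57 ± 0.33 did not pass in the blocked fit (adjusted p = 1). At recovery it was at 70.9, 25.5, 31.8 and 13.0 in air and at 25.5, 10.8, 14.1 and 11.5 in smoke. All 4 animals were lower in smoke, S4 only slightly, and the ranges overlapped. The difference of −0.97 ± 0.33 was not called in the blocked fit (adjusted p = 0.12) but was in the 23-library blocked fit (adjusted p = 0.045) and on the 8 libraries alone (adjusted p = 0.035). At 5 days the difference was −0.11 ± 0.33.

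EGR1, a target of ERK signalling through serum response factor, lay above air in all 4 animals at 1 day and below it in all 4 at recovery. At 1 day it was at 1205, 916, 1007 and 1029 in air and at 1563, 1367, 1495 and 1398 in smoke. The groups were apart and the animals alike, with log2 differences of 0.38 to 0.58. The fitted difference of 0.49 ± 0.21 was not called in the blocked fit (adjusted p = 1) or the 23-library blocked fit (adjusted p = 0.31), and was called on the 8 libraries alone (0.49 ± 0.04, adjusted p = 5.8e-05). At recovery EGR1 was at 1025, 599, 765 and 681 in air and at 660.4, 320.3, 379 and 199 in smoke. All 4 animals were lower in smoke, S4 the most, and the ranges overlapped through S1, which was high in both. The difference was −1.08 ± 0.21, or 2.11-fold lower (adjusted p = 0.0087 blocked, 0.17 unblocked), and the blocked call was kept without S1 but lost on leaving out S2, S3 or S4. Unblocked, it was called without the smoke recovery library of S1 (adjusted p = 0.020) or without all of S1 (adjusted p = 0.027). At 5 days EGR1 was at 652, 392, 562 and 539 in air and at 812, 329, 748 and 779.8 in smoke, with S2 the only animal lower in smoke. The difference of 0.25 ± 0.21 did not pass the test.

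ATF3, the stress-responsive factor, did not pass the test at any time. Its air libraries ranged from 122 to 148 at 1 day, 99.9 to 131 at 5 days and 112 to 167 at recovery. Its smoke libraries ranged from 115 to 175, 64.9 to 124 and 98.3 to 139. All ranges overlapped. The blocked log2 differences were 0.06 ± 0.20, −0.27 ± 0.20 and −0.31 ± 0.20, with adjusted p of 1, 0.45 and 0.44. At recovery ATF3 averaged 141 ± 22.8 in air and 113 ± 17.9 in smoke and was lower in smoke in 4 of 4 animals, though S3 had a log2 difference of only −0.0052.

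**Figure D2:**
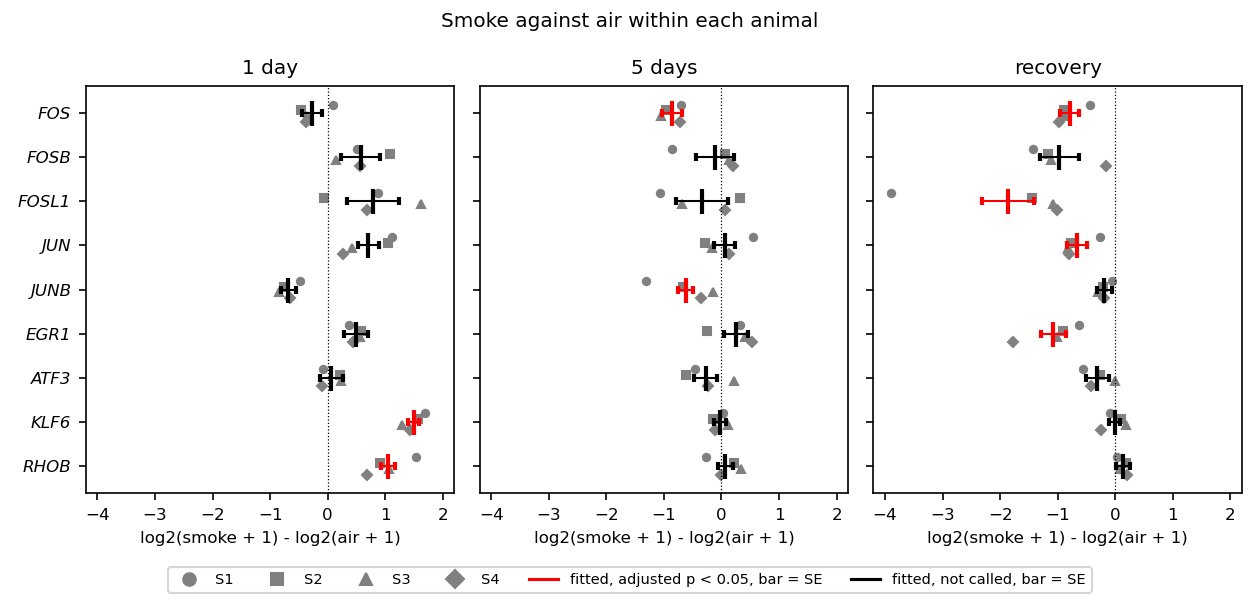
Difference between smoke and air within each animal, as log2(smoke + 1) − log2(air + 1), at the 3 times; grey symbols are animals, and the cross with its bar is the fitted value ± SE with animal as a block, red where the adjusted p is under 0.05. KLF6 lies at 1.29 to 1.68 in all 4 animals at 1 day and near 0 afterwards, and FOSL1 of S1 at recovery (−3.90) lies far from the other animals.

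At recovery, markers of basal cells were lower in smoke, as were FOS, FOSL1, EGR1 and JUN, but not KLF6 or RHOB. FOSB, JUNB and ATF3 were also lower in smoke in all 4 animals but were not called in the blocked fit. The summed level of the 10 basal cell markers with a row, of 12 listed, was 68667 to 83716 in the air libraries and 29752 to 50451 in the smoke libraries at recovery. Of the 10, 6 fell in the blocked fit (KRT5, NGFR, ITGB4, COL17A1, LAMA3 and LAMB3), of which KRT5 and ITGB4 were also called without the block, and none was called at 1 day or 5 days. Of all genes tested 3.41% were called at recovery with the block and 0.242% without it. With the block 0.0782% were called at 1 day and 1.69% at 5 days. At 1 day the sums were 66318 to 83194 in air and 65900 to 83480 in smoke, overlapping almost entirely, and at 5 days 42536 to 62954 and 39659 to 54883. In cultures lysed whole, fewer cells of a type and less RNA per cell cannot be told apart. The part of basal cells in the recovery differences of FOS, FOSL1, EGR1 and JUN was not tested. The ciliated sums at recovery were 8861 to 20032 in air and 9890 to 28467 in smoke, and the secretory sums 12680 to 64920 and 17902 to 80007, with none of the 9 markers of either list called. The sums of the 7 fibroblast markers (378 to 731 over all libraries) and of the 8 leukocyte and endothelial markers (442 to 1090) were low beside these. PDGFRB, DCN, LUM, PTPRC, CD3E, CD79A and CDH5 stayed under 10 in every library.

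Whether the difference between smoke and air itself changed with time was also tested. From 1 day to 5 days the KLF6 effect dropped by 1.52 ± 0.14 on the log2 scale (adjusted p = 1.1e-05 with the block, 0.95 without), and the call was kept after leaving out any 1 animal (adjusted p up to 0.0085). No other of these genes was called in the blocked fit, where 0.0427% of all genes tested were, and none in the unblocked fit, where 0.0142% were. In the unblocked fit 2 of the 9, and 513 of all 14062 genes tested, had an unadjusted p under 0.05. The RHOB effect differed by −0.98 ± 0.18 (adjusted p = 0.053), and by −0.87 ± 0.16 in the 23-library blocked fit (adjusted p = 0.014), which called 0.306% of all genes. From 5 days to recovery the EGR1 effect dropped by 1.33 ± 0.30 (adjusted p = 0.021 with the block, 0.18 without), and the blocked call was kept without S1 and lost on leaving out S2, S3 or S4. Unblocked, it was called without the smoke library of S2 at 5 days (adjusted p = 0.045) or of S1 at recovery (adjusted p = 0.042). It was the only one of the 9 called in the blocked fit, against 3.56% of all genes, and in the 23-library blocked fit, against 11.3%. None of the 9 was called without the block, against 0.348%. There 1 of the 9, and 1608 of all 14062 genes tested, had an unadjusted p under 0.05. The FOS effect, low at both times, differed by 0.06 ± 0.24 between 5 days and recovery. Both changes use the same 5-day libraries.

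In air alone the genes followed separate courses. FOS rose from 387 ± 109 at 1 day to 841 ± 123 at 5 days, a log2 difference of 1.15 ± 0.17 (blocked SE), and reached 1157 ± 46.0 at recovery. The first step was called with the block (adjusted p = 0.00033) and without it (adjusted p = 0.0028), was higher in 4 of 4 animals with no overlap, and was lost in the unblocked fit without S4 (adjusted p = 0.085). The second step, 0.47 ± 0.17, was called in the blocked fit (adjusted p = 0.044), not in the unblocked fit (adjusted p = 0.098) nor in the 23-library blocked fit (adjusted p = 0.074). EGR1 went the other way, from 1039 ± 121 to 536 ± 108, a fall of 0.97 ± 0.21 on the log2 scale called in the blocked fit (adjusted p = 0.0061; 0.059 without the block). KLF6 rose over the same step from 609 ± 117 to 903 ± 297 (0.53 ± 0.10, adjusted p = 0.0014 with the block, 0.24 without). These 3 of 9 genes stand against 19.4% of all genes called with the block, and FOS alone against 3.98% without it. From 5 days to recovery in air, FOSL1 rose with the block (1.48 ± 0.45, adjusted p = 0.022; 0.094 without it), which with FOS made 2 of 9 genes against 28.4% of all genes. Without the block 0 of 9 were called, against 11.3%. There 2 of the 9, and 4139 of all 14062 genes tested, had an unadjusted p under 0.05. The FOSL1 call was lost on leaving out S2 (adjusted p = 0.1) or S4 (adjusted p = 0.074), and unblocked it was made without S1 of air at 5 days (adjusted p = 0.043). Cell type markers moved over the same steps in air. In the blocked fit from 1 day to 5 days 6 of 10 basal markers fell (median −0.58). Over that step 2 of 9 ciliated markers and 1 of 9 secretory markers (AGR2) rose. Over the step to recovery 8 of 10 basal markers rose (median 0.81) while 5 of 9 secretory markers fell (median −0.95), as did 1 of 9 ciliated markers (FOXJ1). Their part in the courses of these genes was not tested. The air groups are also the controls of the smoke comparisons, so the KLF6 values at 5 days, level in both exposures, lie above air at 1 day. Scaling to equal library totals moved the median of all genes by −0.14 for the step from 1 day to 5 days in air and by 0.16 for the change of the smoke effect over it. On that scale the FOS, EGR1 and KLF6 steps were 1.00, −1.12 and 0.38, and the change of the KLF6 effect was −1.36.

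The order of the 6 group means was different for every gene. KLF6, RHOB, JUN, EGR1, FOSB and ATF3 had their highest mean in smoke at 1 day, FOS and FOSL1 in air at recovery, and JUNB in air at 1 day. The lowest mean was in smoke at recovery for FOSB, FOSL1, JUN and EGR1, in smoke at 1 day for FOS, in smoke at 5 days for JUNB and ATF3, and in air at 1 day for KLF6 and RHOB. The highest mean was 4.56 times the lowest for FOSL1, 3.74 for EGR1, 3.66 for FOS, 3.07 for FOSB, 2.85 for KLF6, 2.33 for JUN, 1.99 for RHOB, 1.63 for JUNB and 1.47 for ATF3. Most neighbours in these orders overlapped. For KLF6 the 4 middle groups, from smoke at recovery (923) to smoke at 5 days (877), did not differ beyond their spread, and for FOS the groups in smoke at recovery (673 ± 113) and air at 5 days (841 ± 123) overlapped as well.

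Animals kept their own levels for some genes. RHOB was highest in S2 in all 6 groups, at 1607 to 3029.8, and KLF6 was highest in S2 in all 6 groups too, at 776 to 2306. FOSL1 and FOSB were highest in S1 in air at both later times. Over the 6 groups the spread between animals, as SD over the mean, was 41.1 to 78.9% for FOSL1, 34.9 to 50.7% for RHOB and 19.2 to 39.6% for KLF6. It was 5.02 to 36.8% for JUN and 3.98 to 28.2% for FOS. For FOSB it was 12.6 to 70.7%, for EGR1 6.19 to 50.2%, for JUNB 10.8 to 35.0% and for ATF3 9.32 to 26.1%. Most of these ranges overlapped.

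Across the 24 libraries, with each animal's mean removed, the 9 genes did not vary as a single unit. The highest Pearson correlation of log2 values was between KLF6 and RHOB (0.899), followed by JUN and EGR1 (0.85), FOSB and EGR1 (0.775) and FOSB and JUN (0.69). FOS was positively correlated with JUNB (0.564) and FOSL1 (0.364) and negatively with EGR1 (−0.505) and RHOB (−0.455), and JUNB was negatively correlated with KLF6 (−0.581). The points share animals, groups and library depth, and the values are given as a description. Among 10057 genes with a symbol and a mean of at least 50, the gene most like KLF6 was RHOB, and the next, INPPL1, ZNF595, RAB35 and GSTA4, reached only 0.66 to 0.683. The genes most like FOS were ADORA2B (0.93), KCTD11 (0.914), ADM (0.907), DUSP4 (0.905) and ANGPTL4 (0.896). ADM was at 133, 627 and 965 in air at 1 day, 5 days and recovery, and at 97.4, 387 and 686 in smoke.

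**Figure D3:**
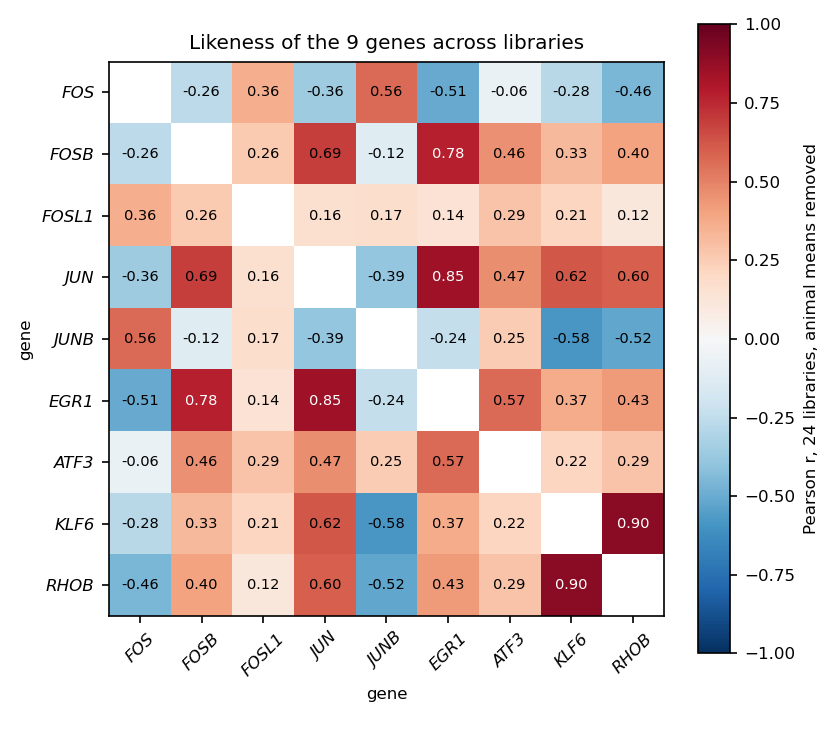
Pearson correlation between each pair of the 9 genes over 24 libraries, on log2(value + 1) with each animal's mean removed (colour scale from −1 to 1, diagonal left blank). The darkest red cells are KLF6 with RHOB (0.899), JUN with EGR1 (0.85) and FOSB with EGR1 (0.775), and FOS is blue against EGR1 and RHOB.

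Other genes of the same pathway were followed through lists chosen with earlier results of these data known. At 1 day no gene of any list was called in the blocked fit: 0 of 24 other immediate early genes, 0 of 15 other AP-1 and ATF family members, 0 of 20 MAPK and serum response factor inputs, 0 of 14 ERK feedback and mRNA decay genes, 0 of 17 AP-1 target genes and 0 of 12 KLF family members. That fit called only 0.0782% of all genes tested at 1 day, so counts of 0 do not set these lists apart. MYC, the proto-oncogene, had the smallest p among the other immediate early genes (0.74 ± 0.15 on the log2 scale, adjusted p = 0.08), and EGR2, an EGR1 paralog, differed by 1.27 ± 0.36 (adjusted p = 0.46). Of the KLF family 11 of 12 were above 0, with a median of 0.12. Of all genes tested 49.2% were below 0, with a median of 0.0037. KLF2 was at 0.89 ± 0.30 (adjusted p = 0.74) and KLF4 at 0.44 ± 0.11 (adjusted p = 0.21), while KLF11 and KLF12 were at only 0.0041 and 0.0084.

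At 5 days the called genes of these lists were all lower in smoke, as were FOS and JUNB. In the blocked fit, which called 1.69% of all genes at this time, 3 of the 24 other immediate early genes fell: ID1 and ID3, inhibitors of basic helix-loop-helix factors (−1.22 ± 0.18, adjusted p = 0.0028, and −0.78 ± 0.13, adjusted p = 0.0059), and TRIB1, a pseudokinase (−0.58 ± 0.13, adjusted p = 0.032). Their list had 20 of 24 genes below 0, where 48.3% of all genes were, and a median of −0.19. Of the 15 AP-1 and ATF family members 1 fell, the small MAF protein gene MAFF (−0.64 ± 0.16, adjusted p = 0.043). Among the 14 ERK feedback and mRNA decay genes 2 fell, DUSP4, a MAP kinase phosphatase (−0.51 ± 0.12, adjusted p = 0.041), and ZFP36L1, which binds AU-rich mRNAs for decay (−0.46 ± 0.10, adjusted p = 0.029). CCND1, encoding cyclin D1, was the only 1 of 17 AP-1 target genes called (−0.47 ± 0.10, adjusted p = 0.023). None of these 7 was called in the unblocked fit.

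At recovery 4 of 17 AP-1 target genes fell in the blocked fit, and 14 of 17 were below 0, with a median of −0.53. Of all genes 3.41% were called in that fit and 48.8% were below 0, with a median of 0.0083. CD44, the hyaluronan receptor, went from 3834 ± 218 in air to 2425 ± 384 in smoke (−0.67 ± 0.10, adjusted p = 0.0016) and was the only gene of these 6 lists also called without the block in a smoke comparison (adjusted p = 0.019). The collagen-binding integrin gene ITGA2 (−1.26 ± 0.25, adjusted p = 0.0089), the urokinase gene PLAU (−0.64 ± 0.13, adjusted p = 0.0082) and the collagenase gene MMP13 (−0.81 ± 0.21, adjusted p = 0.036) were the others. Of the other immediate early genes 4 of 24 fell (MYC, TRIB1, ID3 and ID1, by 0.56 to 0.73 on the log2 scale), with DUSP6, the ERK phosphatase, at −0.78 ± 0.18 (adjusted p = 0.022) and KLF7 at −0.68 ± 0.12 (adjusted p = 0.0051). None of the MAPK and serum response factor inputs was called at 5 days or recovery. The basal marker sums given above were also lower in smoke at recovery.

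**Figure D4:**
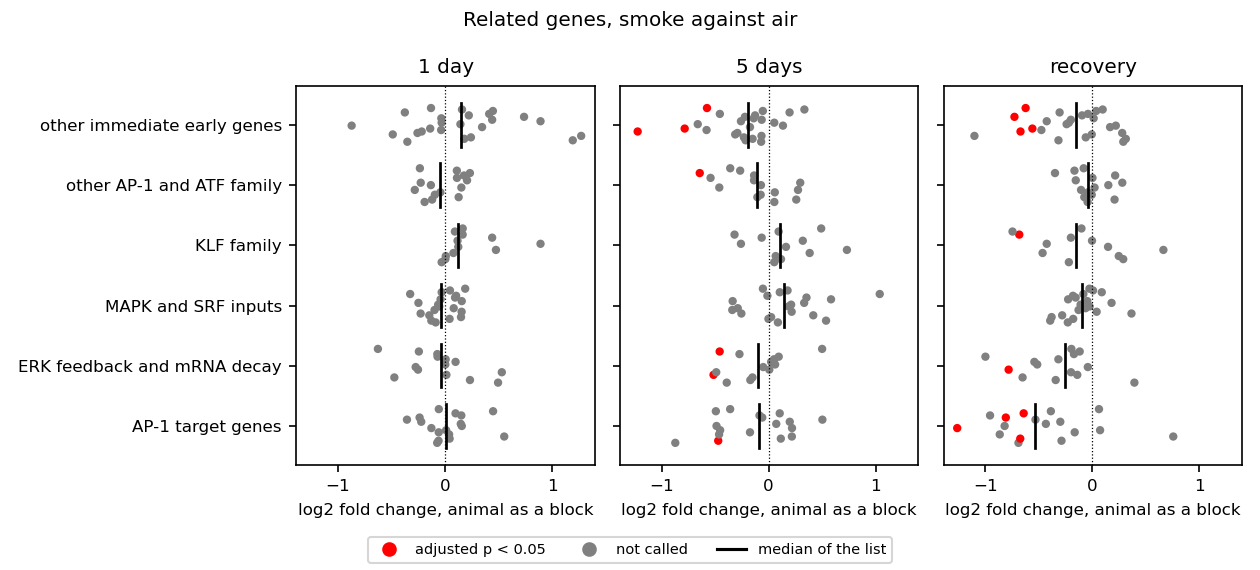
Log2 fold change of smoke against air in the fit with animal as a block, for 6 lists of related genes at the 3 times; each point is a gene (red where the adjusted p is under 0.05) and the black line is the list's median. At 1 day no point is red, and at recovery the AP-1 target genes have the lowest median (−0.53), with ITGA2 farthest left at −1.26.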

How the data were processed

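Poly-A selected RNA of 24 libraries was measured, 1 per animal in each of 6 groups. The deposited table is named as raw counts, but its values are a normalized signal (normalized counts here): they are not whole, and every library had a median ratio of 1.01 to the geometric mean library. FastQC, Trim Galore, Bowtie2 and RSEM were used by the authors, per the submitters' processing notes, with versions, build, annotation and normalizing tool not given in the sources used here. Low values came out as whole multiples of a step (0.727 to 1.6, tolerance 0.1 of it) in only 77.4 to 83.0% of cases, so whole reads were not recovered and no count model was used. The step, taken as 1 read, gave the approximate depths.

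Genes reaching 10 in 4 or more libraries were tested with limma 3.58.1 (R 4.3.3) on log2(value + 1), trend on, two-sided, with Benjamini-Hochberg adjustment over 14062 genes. Every adjusted p is limma's. The fit without the block is the main design. The fit with animal as a block is printed beside it, and most rises and falls are its calls. The alternatives were the block, a random effect, other libraries, scaling, filters, pseudocounts and each animal or library left out. The animal labels pair the libraries: deviations from group means correlated at 0.303 to 0.804 within an animal and at −0.443 to 0.0149 between animals. Subtracting the group means by itself lowers the values between animals. Replicates are separate animals. The script was tested on simulated data.

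The genes and lists were chosen with earlier results of these data known. All 9 genes are named in every comparison of smoke against air. For the changes of that difference and the air steps only some are named, mostly those called in a fit. Of each related list the text draws on the 4 smallest p per smoke comparison with the block, and the genes most like KLF6 and FOS are the 5 with the highest correlation. Some genes of the lists are not reported here, and list counts leave them out. A planned search of promoter motifs was not run.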

Additional observations from a re-analysis of the deposited data

Results flagged for a closer look

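In 54 sets of 4 libraries (9 genes in 6 groups), 4 had a library far from the other 3, and chance alone flags about 1 set in 20. EGR1 in smoke at 5 days was at 329 normalized counts in S2, against 748 to 812 in the other animals. RHOB was high in S2 in 3 groups: 1680.4 in air at 5 days against 809 to 947, 1890.3 in air at recovery against 809.8 to 911, and 2163 in smoke at recovery against 830.2 to 1053.

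In the fit with animal as a block, the smoke effect differed between times for KLF6, by −1.52 on the log2 scale from 1 day to 5 days, and for EGR1, by −1.33 from 5 days to recovery.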

How the results depend on the processing

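Counts below are of the 9 immediate early genes called, then of all genes called, first for smoke against air (1 day, 5 days, recovery), then for the change of that difference over the 2 intervals, then for air over the same intervals. Without the block they were 0, 0, 0, 0, 0, 1 and 0 of the 9, and 4, 10, 34, 2, 49, 559 and 1595 of all. With the replicate block (animal) they were 2, 2, 4, 1, 1, 3 and 2, and 11, 237, 480, 6, 501, 2728 and 3991. With the replicate block as a random effect they were 2, 2, 3, 1, 1, 3 and 2, and 11, 179, 330, 5, 405, 2583 and 3772. With the replicate block and only the libraries compared they were 5, 0, 5, 1, 0, 0 and 0, and 1281, 0, 2650, 5, 73, 0 and 4. Leaving out S1 in air at 5 days, with no block, they were 1, 0, 1, 0, 0, 1 and 1, and 15, 53, 352, 2, 169, 591 and 1226. Without that library and with the block they were 4, 2, 5, 2, 1, 3 and 1, and 135, 880, 2639, 43, 1583, 2622 and 3806. At an adjusted p under 0.1 they were 1, 1, 1, 0, 0, 2 and 2, and 5, 35, 62, 4, 111, 1571 and 2776. Equal library totals gave 0, 0, 0, 0, 0, 2 and 0, and 1, 11, 31, 0, 41, 890 and 1485. No filter gave 5, 8, 32, 1, 25, 350 and 1156 of all genes, with the 9 genes as without it. The stricter filter and pseudocounts of 0.5 and 5 left the count of the 9 genes as it was. That filter, a mean value of at least 100, left FOSL1 and FOSB untested. The cause of these differences was not tested.

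An animal was left out with or without the block, and a single library only without it. Such omissions gave 0 to 3 of the 9 genes at 1 day, 0 to 2 at 5 days and 0 to 3 at recovery. They gave 0 to 2 and 0 to 1 for the changes, and 0 to 3 and 0 to 1 in air. Of all genes they gave 1 to 75, 2 to 834, 0 to 2839, 0 to 34, 1 to 1541, 10 to 2632 and 296 to 3733. The blocked fit without S1 in air at 5 days, counted above, is not part of these ranges.

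Differences that were not called and lay near 0 changed sign. Leaving out animals or libraries took KLF6 at 5 days to −0.18 to 0.17 and at recovery to −0.26 to 0.19, RHOB to −0.21 to 0.29 and −0.18 to 0.42, FOSL1 at 5 days to −0.68 to 0.094, FOSB at 5 days to −0.26 to 0.13, JUN at 5 days to −0.11 to 0.18, ATF3 at 1 day to −0.035 to 0.17, and the FOS change from 5 days to recovery to −0.085 to 0.17. Leaving out S1 in air at 5 days, the 5-day values were 0.094 (FOSL1), 0.0063 (KLF6), 0.070 (FOSB) and −0.011 (JUN), the last −0.070 with the block. Equal library totals gave 0.049 and 0.0057 for KLF6 at 5 days and recovery and −0.018 for ATF3 at 1 day. No difference called with or without the block changed sign under these alternatives. The FOS step from 1 day to 5 days in air was the only difference called without the block, and it was lost on its own 8 libraries with the block (1.15, adjusted p = 0.14) and without S4 unblocked.

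The 4 animals per group, low values of FOSL1 and FOSB, and an unknown count scale limit precision. Counting error was not computed.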
